A study of Mus musculus with 56 samples.

Results

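Bile acid synthesis in the liver was followed through 10 genes of the 21935 in the count table: *Cyp7a1*, *Cyp8b1*, *Cyp27a1*, *Cyp7b1*, *Cyp39a1*, *Hsd3b7*, *Akr1d1*, *Amacr*, *Baat* and *Nr1h4*. They were chosen by gene symbol for their role in the pathway, and all 10 were among the 14105 genes with enough reads to be tested. The livers came from 56 male C57BL/6J mice, 8 in each of 7 groups, which arrived at 5 to 6 weeks of age and were fed for 36 weeks before 8 weeks of daily subcutaneous dosing. One group ate chow and received vehicle. The other 6 groups ate the AMLN diet, rich in fat, fructose and cholesterol, which makes mice obese and gives them steatohepatitis (DIO-MASH), and only animals with steatosis and fibrosis on a liver biopsy taken before dosing entered the study. These mice received vehicle, zalfermin at 0.05 mg/kg (low) or 0.2 mg/kg (high), semaglutide at 3 µg/kg (low) or 120 µg/kg (high), or a combination. The study's methods give the combination as both low doses, while the series description calls it both high doses, and it is described here as in the methods. Zalfermin is a long-acting analog of fibroblast growth factor 21 (FGF21), and semaglutide is an agonist of the glucagon-like peptide-1 receptor.

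Hepatocytes turn cholesterol into bile acids along 2 routes. The classic route starts with CYP7A1 at the 7α position of the sterol ring, and the alternative route starts with CYP27A1 on the side chain and continues with CYP7B1, while CYP39A1 is an oxysterol 7α-hydroxylase best known for acting on 24-hydroxycholesterol. Later enzymes reshape the ring (HSD3B7, AKR1D1), set the share of cholic acid (CYP8B1), convert the side chain for shortening (AMACR) and attach taurine or glycine (BAAT). Bile acids that return to the liver activate FXR, the receptor encoded by *Nr1h4*, which lowers the expression of *Cyp7a1* and *Cyp8b1*.

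Promoter sequences from RefSeq (GRCm38.p6) matched 5 of the 10 genes: *Cyp8b1*, *Cyp27a1*, *Akr1d1*, *Hsd3b7* and *Nr1h4*. The 200 bases before the transcription start of 3 of them are shown, because *Cyp27a1* and *Akr1d1* were, with *Cyp39a1*, the members called most often against DIO-MASH vehicle and *Cyp8b1* belongs to the classic route. They lie at chr9:121916306-121916505 on the minus strand, chr1:74713335-74713534 on the plus strand and chr6:37529973-37530172 on the plus strand. Capitals mark matches, on either strand, to the LRH-1 site CAAGGNCA, the TATA box TATAAA or the D-box TTATGNAA of the clock output factors DBP, TEF and HLF.
Cyp8b1: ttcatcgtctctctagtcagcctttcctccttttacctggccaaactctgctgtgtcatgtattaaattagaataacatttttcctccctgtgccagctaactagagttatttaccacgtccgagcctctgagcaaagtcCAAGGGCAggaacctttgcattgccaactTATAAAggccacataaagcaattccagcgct
Cyp27a1: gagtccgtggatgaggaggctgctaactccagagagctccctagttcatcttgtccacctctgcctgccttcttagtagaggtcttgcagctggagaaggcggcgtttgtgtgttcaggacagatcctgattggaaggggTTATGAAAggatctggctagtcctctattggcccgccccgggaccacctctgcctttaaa
Akr1d1: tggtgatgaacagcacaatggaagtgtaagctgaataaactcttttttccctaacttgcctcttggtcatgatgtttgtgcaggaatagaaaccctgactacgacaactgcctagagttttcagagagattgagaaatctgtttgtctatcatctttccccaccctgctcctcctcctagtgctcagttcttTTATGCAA

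The *Cyp8b1* window held an LRH-1 match that begins 60 bases before the start and a TATA box that begins 31 bases before it. The *Cyp27a1* and *Akr1d1* windows each held a D-box match, which begins 60 and 8 bases before the start. Of 32817 mouse promoter windows of this length, 4.29% held the LRH-1 motif, 9.96% the TATA box and 2.41% the D-box. The nuclear receptor half-site AGGTCA, in 11.4% of windows, and the HNF1 half-site GTTAAT, in 5.06%, were searched too and matched none of the 3 windows, and *Nr1h4* held the HNF1 half-site once, 40 bases before its start. A match is a string of letters, and no binding was measured.

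The libraries held 5228187 to 20885786 reads, with a median of 12206788. Levels are given as CPM, the reads of a gene relative to the TMM-scaled size of its library, and differences as log2 fold changes of edgeR's quasi-likelihood fit with their standard error (SE). A gene was called when its p-value, adjusted over the 14105 genes, was under 0.05. In earlier results of these data 3 mice were singled out: mouse 1 of low-dose zalfermin, mouse 6 of low-dose semaglutide and mouse 8 of the chow group. The summed small intestine markers of the chow group reached 603 CPM, against a median of 35.7 CPM. Each comparison was repeated without each of these mice. The labels give each mouse a running number and name no batch. For a check, the numbers were divided here at their 3 widest gaps into 4 series, a division of this work that may not match any batch, and smaller gaps remain within the series. In the 3 series that hold 1 to 4 mice of every group, each of the 22 called differences from DIO-MASH vehicle had the same sign. The calls drew on the same mice, so the shared sign is not an independent check. Within a series the differences in mean log2 CPM went as low as 0.04, for *Cyp39a1* with high-dose semaglutide.

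Per kilobase of exon, *Cyp27a1* was the highest of the 10 genes in every group, at 322 ± 26.1 CPM per kb (SD, n = 8) in chow and 152 ± 11.6 CPM per kb in DIO-MASH vehicle. *Cyp8b1* came second in both, while *Cyp39a1* ranked ninth of 10, at 21.2 ± 3.70 and 6.89 ± 1.3 CPM per kb. *Hsd3b7*, the ring-modifying enzyme after the 7α-hydroxylases, was close to undetected, with 1 to 25 reads per mouse. In the GENCODE vM21 annotation of GRCm38, 99.2% of its exonic bases (chr7:127800604-127803802) also belong to exons of *Gm49388* on the same strand or *9430064I24Rik* on the opposite one, so its count is uncertain and no difference of it was called.

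**Figure D1:**
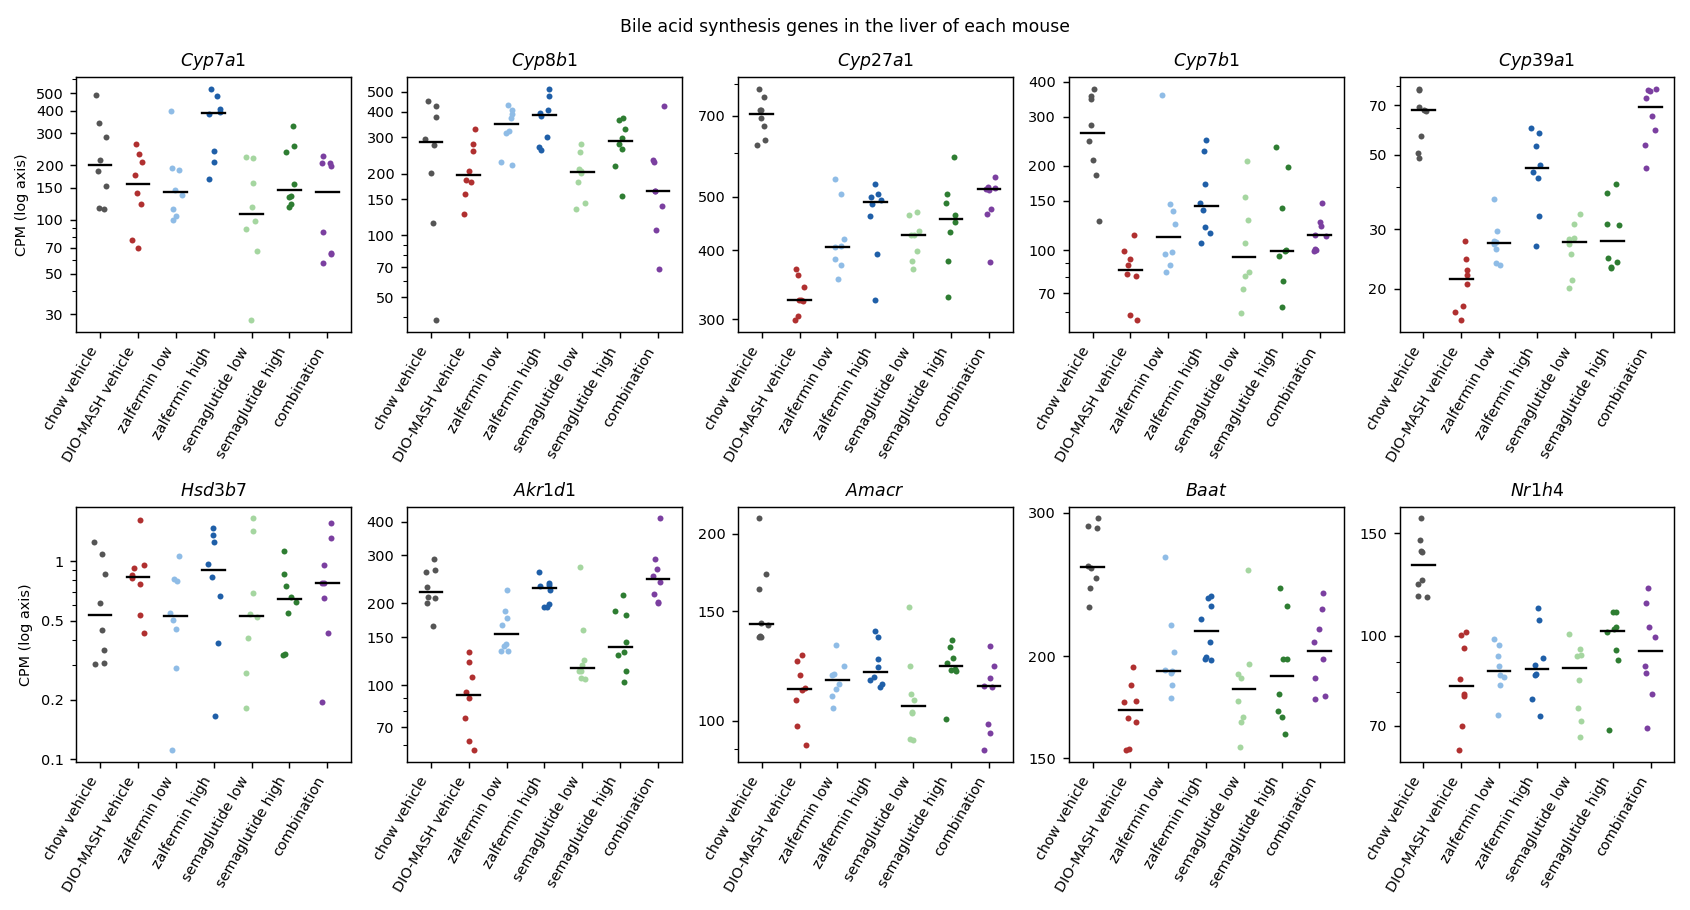
Level of the 10 genes in each mouse (CPM, log axis) by group, with 8 mice a group and the group median as a black line. In chow, *Cyp27a1*, *Cyp7b1*, *Cyp39a1*, *Akr1d1*, *Amacr*, *Baat* and *Nr1h4* lie above every DIO-MASH vehicle mouse. For *Cyp7a1*, *Cyp8b1* and *Hsd3b7* the chow and DIO-MASH vehicle mice overlap.

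The first comparison asked how the 10 genes differed between chow and DIO-MASH vehicle. Chow-fed mice expressed 7 of the 10 genes more highly than DIO-MASH vehicle mice, with none lower. Of all genes tested 55.4% were called in this comparison, so the count of members lay near that share. For those 7 genes the groups did not overlap, and the share of all genes without overlap was not computed. The called genes were those of the alternative route, the later enzymes *Akr1d1*, *Amacr* and *Baat*, and the receptor gene *Nr1h4*. The entry enzyme of the classic route and *Cyp8b1* were not called. The median log2 fold change of the 10 genes was 0.64, against -0.01 over all genes tested.

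*Cyp7a1* (chr4:6265612-6275633) ranged from 115 to 492 CPM in chow, with a median of 200.4 CPM, and from 69.8 to 262 CPM in DIO-MASH vehicle, with a median of 158 CPM. The groups overlapped, and the log2 fold change of 0.57 ± 0.35 (SE) had a 95% interval of -0.14 to 1.27 (adjusted p = 0.168). *Cyp8b1* (chr9:121914356-121916305), the sterol 12α-hydroxylase, ranged from 38.6 to 451 CPM in chow and from 127 to 330 CPM in DIO-MASH vehicle, with a log2 fold change of 0.34 ± 0.28 (adjusted p = 0.317). Its lowest chow value belonged to mouse 2 alone, and the next was 115 CPM.

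For *Cyp27a1*, *Cyp7b1* and *Cyp39a1* the groups separated completely. *Cyp27a1* (chr1:74713574-74737892) lay between 620 and 784 CPM in chow, with a median of 705 CPM, and between 299 and 370 CPM in DIO-MASH vehicle, with a median of 325 CPM. Chow was higher by 2.11-fold, a log2 fold change of 1.08 ± 0.09 (adjusted p = 1.03e-13). *Cyp7b1* (chr3:18071950-18243338), the oxysterol 7α-hydroxylase known to be higher in the liver of male mice, lay between 127 and 377 CPM in chow and between 56 and 113 CPM in DIO-MASH vehicle. That was a 3.17-fold difference, with a log2 fold change of 1.66 ± 0.26 (adjusted p = 5.78e-07). *Cyp39a1* (chr17:43667425-43751431), which mice are known to express more highly in females, lay between 49 and 78.4 CPM in chow and between 16.1 and 27.6 CPM in DIO-MASH vehicle. The difference was 3.08-fold, with a log2 fold change of 1.62 ± 0.14 (adjusted p = 2.54e-13).

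Of the later enzymes, *Akr1d1* (chr6:37530173-37568815), the Δ4-3-oxosteroid 5β-reductase, was 2.48-fold higher in chow, at 166 to 292 CPM against 57.6 to 132 CPM (adjusted p = 1.07e-08). *Baat* (chr4:49489422-49506557) was 1.54-fold higher and *Amacr* (chr15:10981756-10996626) 1.39-fold higher (adjusted p = 4.19e-08 and 9.28e-06). *Nr1h4* (chr10:89454234-89533585) was 1.58-fold higher, at 117 to 159 CPM against 63.6 to 102 CPM (adjusted p = 5.28e-07). Without chow mouse 8 the same 7 genes were called, with log2 fold changes of 0.50 (*Amacr*) to 1.71 (*Cyp7b1*).

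These livers were sequenced whole, so fewer hepatocytes and less RNA per hepatocyte cannot be told apart. The defining hepatocyte markers were present in every group. Their summed level had a median of 157034 CPM in chow (142960 to 237189) and 69324 CPM in DIO-MASH vehicle (59151 to 81635), with 8 of 8 markers higher in chow. Stellate cell markers summed to a median of 218 CPM in chow and 1215 CPM in DIO-MASH vehicle, with 5 of 6 lower in chow. They summed to 485 CPM in the combination (5 of 6 lower), 582 CPM with high-dose zalfermin (2 of 6) and 642 CPM with high-dose semaglutide (2 of 6). Hepatocyte markers were also higher than in DIO-MASH vehicle with high-dose zalfermin (8 of 8) and the combination (7 of 8), in fewer cases with high-dose semaglutide (1 of 8) and in none with either low dose, and the part of either marker list in the differences below was not tested.

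The second question was what each drug did within the DIO-MASH mice. High-dose zalfermin raised 7 of the 10 genes above DIO-MASH vehicle and lowered none, when 17.2% of all genes were called, and the 7 included both *Cyp7a1* and *Cyp8b1*. The median log2 fold change of the 10 genes was 0.64, against -0.02 over all genes. *Hsd3b7*, *Amacr* and *Nr1h4* were not called, with log2 fold changes of 0.00, 0.14 and 0.10.

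With high-dose zalfermin *Cyp7a1* reached 168 to 531 CPM, with a median of 389 CPM, and each of the 8 mice lay above the DIO-MASH vehicle median. It was 2.19-fold higher, a log2 fold change of 1.13 ± 0.35 (adjusted p = 0.0200). The call was lost without vehicle mouse 4 (adjusted p = 0.0501) and with the number series as a covariate (adjusted p = 0.0544), and the difference in mean log2 CPM was 1.37, 1.72 and 0.07 within the 3 series. *Cyp8b1* reached 260 to 517 CPM, with a median of 387 CPM, and was 1.74-fold higher, a log2 fold change of 0.80 ± 0.28 (adjusted p = 0.0418). That call was kept in 46 of the 56 fits that left out 1 mouse, with adjusted p-values up to 0.0854 in the others, which left out vehicle mice 2, 3, 4, 7 or 8 or high-dose zalfermin mice 3, 4, 5, 7 or 8. It was also lost with the number series as a covariate (0.0620) and with no filter beyond 1 read (0.0510).

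The mRNA levels of *Cyp7b1*, *Cyp27a1* and *Cyp39a1* were also higher with high-dose zalfermin. *Cyp7b1* lay between 106 and 247 CPM (1.9-fold, log2 fold change 0.93 ± 0.26, adjusted p = 0.00904), and *Cyp27a1* between 325 and 528 CPM (1.39-fold, adjusted p = 1.26e-04). *Cyp39a1* lay between 26.8 and 59.8 CPM, with 7 of 8 mice above every vehicle mouse, and was 2.17-fold higher (adjusted p = 9.96e-08). *Akr1d1* lay between 193 and 262 CPM and did not overlap with DIO-MASH vehicle, at 2.39-fold (adjusted p = 4.39e-07). *Baat*, the conjugating enzyme, was 1.26-fold higher, again without overlap (adjusted p = 0.00454).

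Low-dose zalfermin gave 1 call among the 10 genes, against 0.468% of all genes. The called gene was *Akr1d1*, at 134 to 224 CPM and 1.76-fold above DIO-MASH vehicle without overlap (log2 fold change 0.81 ± 0.17, adjusted p = 0.0157). That call was lost without low-dose mouse 1 (adjusted p = 0.0940), vehicle mouse 4 (0.0639) or vehicle mouse 8 (0.0521). *Cyp27a1* had a log2 fold change of 0.36 ± 0.09 (adjusted p = 0.0522) and was called with the number series as a covariate (0.0334), by DESeq2 (0.00598) and in 10 of the 56 fits that left out 1 mouse. *Cyp7b1* had one of 0.76 ± 0.26 (adjusted p = 0.191) that was 0.40 without mouse 1, and DESeq2 called it (0.0467). *Cyp7a1* was at 0.11 ± 0.35, with an interval of -0.60 to 0.81, and at -0.19 without mouse 1.

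High-dose zalfermin differed from the low dose in 1 of the 10 genes, *Cyp39a1*, where 1.84% of all genes were called. It was 1.63-fold higher at the high dose (log2 fold change 0.71 ± 0.14, adjusted p = 0.00366). *Cyp7a1* was 2.03-fold higher (log2 fold change 1.02 ± 0.35, adjusted p = 0.135), and was called without low-dose mouse 1, at 1.32 (adjusted p = 0.0234), and in the fit of those groups alone (0.0495), which also called *Akr1d1* (0.0283). *Cyp8b1* differed by 0.16 ± 0.28 between the doses.

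Semaglutide left the classic enzymes uncalled at both doses. At the high dose 3 of the 10 genes were higher than in DIO-MASH vehicle and none lower, against 2.43% of all genes called. *Cyp27a1* was 1.37-fold higher, at 330 to 589 CPM (adjusted p = 0.00569), and *Akr1d1* 1.62-fold higher, at 103 to 214 CPM (adjusted p = 0.0190). *Cyp39a1* was 1.4-fold higher, at 23.1 to 40.9 CPM (adjusted p = 0.0493), a call kept in 30 of the 56 fits that left out 1 mouse and in 1 of 6 other alternatives. The *Akr1d1* call was lost without high-dose mouse 2 (adjusted p = 0.0516), high-dose mouse 3 (0.0790) or vehicle mouse 4 (0.0565).

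*Cyp7a1* with high-dose semaglutide ranged from 118 to 329 CPM, with a log2 fold change of 0.21 ± 0.35 and an interval of -0.49 to 0.91. *Cyp8b1* ranged from 155 to 371 CPM, with 0.40 ± 0.28 and an interval of -0.17 to 0.96. Low-dose semaglutide gave 0 calls among the 10 genes by edgeR, where 0% of all genes were called and 1222 had an unadjusted p under 0.05. Of the 10 genes, 3 had an unadjusted p under 0.05, and DESeq2's Wald test called *Cyp27a1* and *Akr1d1*. *Cyp27a1* lay between 370.3 and 469.1 CPM, without overlap with DIO-MASH vehicle, whose highest mouse was at 369.8 CPM. DESeq2 put the *Cyp27a1* log2 fold change at 0.34 (adjusted p = 0.0368). The *Akr1d1* log2 fold change of 0.58 ± 0.17 was 0.37 without mouse 6, the highest of its group at 272 CPM. The 2 semaglutide doses differed in 0 of the 10 genes by edgeR and by DESeq2, with 0 at an unadjusted p under 0.05, and 0% of all genes were called, with 549 at an unadjusted p under 0.05. At the high doses zalfermin and semaglutide differed in *Cyp39a1*, 1.54-fold higher with zalfermin (adjusted p = 0.0227), against 0.447% of all genes. That call was lost in the fit of those groups alone (adjusted p = 0.0836) and without high-dose zalfermin mice 2 or 4 or high-dose semaglutide mice 1, 6, 7 or 8 (adjusted p = 0.0530 to 0.0814). *Cyp7a1* was 1.89-fold higher with zalfermin (adjusted p = 0.285).

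**Figure D2:**
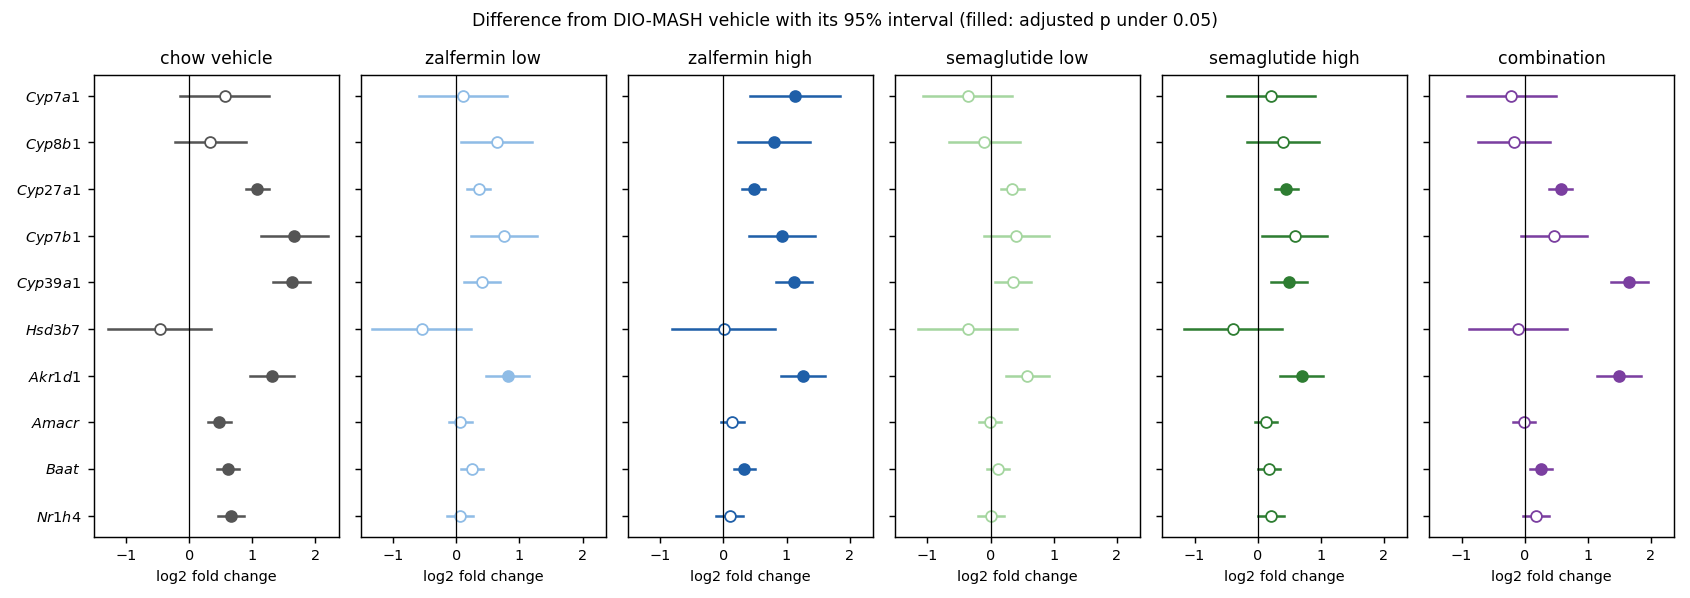
Log2 fold change of each gene from DIO-MASH vehicle with its 95% interval, for chow and the 5 treatments (filled circles: adjusted p under 0.05). With high-dose zalfermin the circles of *Cyp7a1* and *Cyp8b1* are filled at 1.13 and 0.80, and with the combination they are open at -0.21 and -0.17.

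The third question was how the combination of low doses compared with its parts and with the high doses. It raised 4 of the 10 genes above DIO-MASH vehicle and lowered none, against 20.9% of all genes called: *Cyp39a1*, *Akr1d1*, *Cyp27a1* and *Baat*. *Cyp7a1*, *Cyp8b1*, *Cyp7b1*, *Hsd3b7*, *Amacr* and *Nr1h4* were not called. The median log2 fold change of the 10 genes was 0.21, against -0.03 over all genes.

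*Cyp39a1* changed most. In the combination it lay between 45.5 and 78.4 CPM, with a median of 69.5 CPM, above every mouse of DIO-MASH vehicle, low-dose zalfermin (23.5 to 36.8 CPM), low-dose semaglutide (20.0 to 33.2 CPM) and high-dose semaglutide. It was 3.16-fold above DIO-MASH vehicle (log2 fold change 1.66 ± 0.14, adjusted p = 5.04e-12), 2.38-fold above low-dose zalfermin (adjusted p = 4.93e-08) and 2.48-fold above low-dose semaglutide (adjusted p = 8.29e-09). Its level overlapped with chow, from which it differed by 0.03 ± 0.14 on the log2 scale, with an interval of -0.24 to 0.31.

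*Akr1d1* lay between 201 and 411 CPM in the combination, with a median of 246 CPM, and did not overlap with DIO-MASH vehicle (2.80-fold, adjusted p = 1.29e-08). *Cyp27a1* lay between 382 and 542 CPM, also without overlap (1.48-fold, adjusted p = 7.06e-06). *Baat* was 1.19-fold higher, with overlap (adjusted p = 0.0310). The *Baat* call was lost without combination mice 3, 4 or 5 or vehicle mice 4 or 6, with adjusted p-values of 0.0531 to 0.0871. *Cyp7b1* lay between 99.5 and 148 CPM, with each of the 8 mice above the vehicle median (log2 fold change 0.46 ± 0.26, adjusted p = 0.204), and was called in the fit of those groups alone (adjusted p = 0.0153).

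The classic enzymes were not called. *Cyp7a1* in the combination fell into a lower and an upper set of 4 mice: mice 1, 4, 6 and 7 were at 85.1, 64.7, 65.4 and 57.7 CPM, and mice 2, 3, 5 and 8 at 199, 206, 225 and 205 CPM. Both sets held mice of each of the 3 number series. The log2 fold change from DIO-MASH vehicle was -0.21 ± 0.35, with an interval of -0.92 to 0.49 (adjusted p = 0.698). *Cyp8b1* ranged from 68.5 to 428 CPM, with a median of 165 CPM and a log2 fold change of -0.17 ± 0.28 (adjusted p = 0.699).

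**Figure D3:**
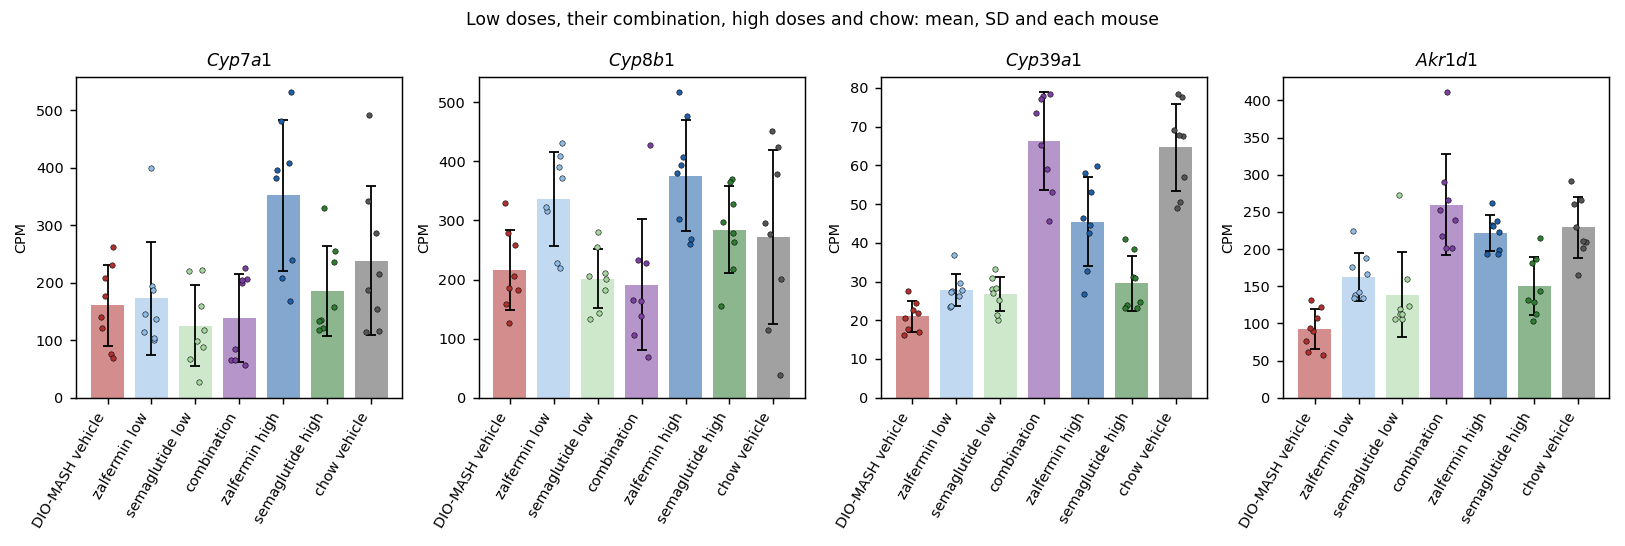
CPM of 4 genes, with bars for the group mean, whiskers for 1 SD and a point for each of 8 mice. *Cyp39a1* and *Akr1d1* in the combination stand near their chow levels, whereas *Cyp7a1* and *Cyp8b1* stand near DIO-MASH vehicle. For *Cyp7a1* and *Cyp8b1*, chow and DIO-MASH vehicle overlapped and no difference was called between them.

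Between the combination and low-dose zalfermin 2 of the 10 genes were called, against 6.62% of all genes, and the same 2 against low-dose semaglutide (4.21%) and high-dose semaglutide (1.89%): *Cyp39a1* and *Akr1d1*, both higher in the combination. *Akr1d1* was 1.60-fold above low-dose zalfermin, 1.87-fold above low-dose semaglutide and 1.73-fold above high-dose semaglutide (adjusted p = 0.00943, 6.87e-04 and 0.00550). *Cyp8b1* was 1.76-fold lower in the combination than with low-dose zalfermin (log2 fold change -0.81 ± 0.28, adjusted p = 0.0703), and was called without combination mouse 5 (adjusted p = 0.0125) or chow mouse 2 (0.0299) and by DESeq2 (0.0480).

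The combination and high-dose zalfermin differed in 0 of the 10 genes by edgeR, against 0.503% of all genes. Of the 10 genes, 3 had an unadjusted p under 0.05, and DESeq2's Wald test called those 3. *Cyp7a1* was 2.54-fold lower in the combination, with the median of high-dose zalfermin above every combination mouse (log2 fold change -1.34 ± 0.36, interval -2.06 to -0.63, adjusted p = 0.0597). It was called with the number series as a covariate (0.0477) and without combination mouse 2 (0.0478), low-dose semaglutide mouse 7 (0.0479) or low-dose zalfermin mouse 1 (0.0463). *Cyp8b1* was 1.96-fold lower (log2 fold change -0.97 ± 0.28, adjusted p = 0.100), and was called without combination mouse 5 (0.0326) or chow mouse 2 (0.0401). *Cyp39a1* went the other way, 1.46-fold higher in the combination (log2 fold change 0.54 ± 0.14, adjusted p = 0.0516), and was called in 22 of the 56 fits that left out 1 mouse.

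The departure from additive low doses on the log2 scale, the combination less both low doses plus DIO-MASH vehicle, was called for 0 of the 10 genes by edgeR and for 0.0142% of all genes. *Cyp39a1* had the largest value of the 10, 0.90 ± 0.20 with an interval of 0.50 to 1.3 (adjusted p = 0.107). It was the 1 member with an unadjusted p under 0.05 and the 1 that DESeq2 called. Without low-dose semaglutide mouse 6 or combination mouse 8 edgeR called it too, at 0.95 and 0.96 (adjusted p = 0.0433 and 0.0402). *Akr1d1* was at 0.09 ± 0.24, *Cyp8b1* at -0.71 ± 0.40 and *Cyp7b1* at -0.71 ± 0.37.

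An F test over the 6 DIO-MASH groups called 6 of the 10 genes, against 15.0% of all genes: *Cyp39a1* (adjusted p = 8.93e-13), *Akr1d1* (4.39e-08), *Cyp27a1* (1.24e-04), *Cyp7a1* (0.00867), *Cyp8b1* (0.0221) and *Baat* (0.0492). It called 7 without low-dose semaglutide mouse 6 and 5 without chow mouse 8. *Amacr* and *Nr1h4*, which differed between the diets, were not called here (adjusted p = 0.485 and 0.457). By group mean, *Cyp39a1* ran from combination over high-dose zalfermin, high-dose semaglutide, low-dose zalfermin and low-dose semaglutide to vehicle, and the neighbouring levels from high-dose semaglutide to low-dose semaglutide lay within 1 SD of each other, at 29.5, 27.8 and 26.8 CPM.

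Against chow, in comparisons added after the data were seen, high-dose zalfermin left 6 of the 10 genes lower and none higher, where 37.2% of all genes were called, and the combination left 5 lower and none higher, where 32.4% were called. *Cyp27a1* was 1.52-fold below chow with high-dose zalfermin and 1.42-fold below it with the combination, without overlap in either. *Cyp7b1* was 1.67-fold and 2.31-fold lower, and *Nr1h4* 1.48-fold and 1.4-fold lower. *Cyp39a1* was 1.42-fold lower with high-dose zalfermin (adjusted p = 0.00347) and was not called in the combination. *Akr1d1* was called in neither. In the combination *Cyp8b1* was also called lower without chow mouse 2 (adjusted p = 0.0329) or combination mouse 5 (0.0262), and *Cyp7a1* with the number series as a covariate (0.0361). As a share of the difference between chow and vehicle, the combination stood at 102% for *Cyp39a1*, 114% for *Akr1d1*, 52.9% for *Cyp27a1* and 27.6% for *Cyp7b1*. High-dose zalfermin stood at 68.7%, 96.1%, 44.3% and 55.6%. Both shares use the same vehicle and chow mice.

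The level of *Cyp7a1* relative to *Cyp7b1* and to *Cyp27a1* was described by ratios within a mouse, without a test. These ratios compare mRNA levels, and the flow through either route was not measured. The median log2 ratio of *Cyp7a1* to *Cyp7b1*, in CPM, was 1.11 in DIO-MASH vehicle, -0.53 in chow, 1.0 with high-dose zalfermin and 0.13 with the combination. The low doses gave 0.27 (zalfermin) and 0.20 (semaglutide), and high-dose semaglutide 0.43. All groups overlapped with vehicle. Below every vehicle mouse lay 4 chow mice, 3 mice each of the combination and low-dose semaglutide and 1 of high-dose semaglutide, and above every vehicle mouse lay 2 of high-dose zalfermin and 1 of each semaglutide dose. The median log2 ratio of *Cyp7a1* to *Cyp27a1* was -1.08 in vehicle, -0.15 with high-dose zalfermin, -1.56 with low-dose zalfermin and -1.49 with high-dose semaglutide. It was similarly low in the combination, low-dose semaglutide and chow, at -1.95, -2.00 and -1.91. Above every vehicle mouse lay 5 high-dose zalfermin mice, and below lay 4 of the combination and 2 each of low-dose semaglutide and chow.

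**Figure D4:**
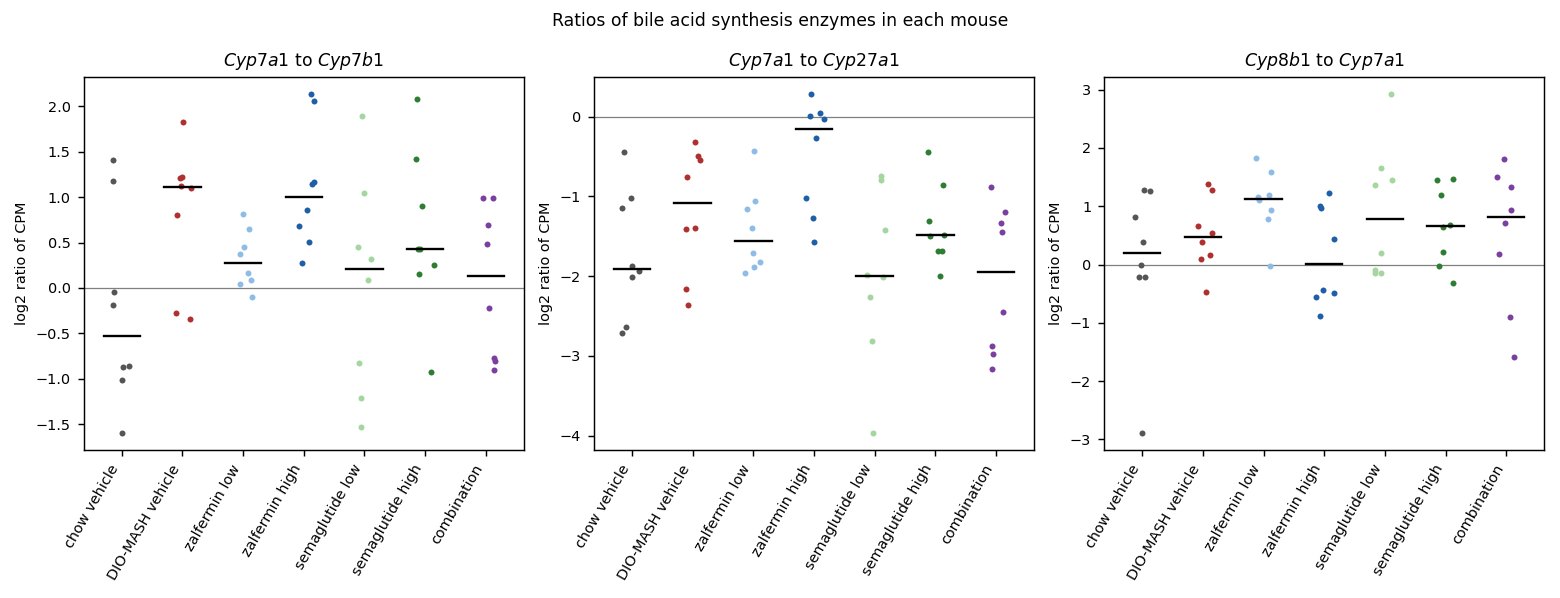
Log2 ratios of CPM between 2 enzymes in each mouse, by group, with the group median as a black line. For *Cyp7a1* to *Cyp27a1*, high-dose zalfermin has the highest median, -0.15, and the *Cyp7a1* to *Cyp7b1* ratio is lowest in chow, at -0.53.

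Over the 56 mice, after the group mean was taken out, the closest pair of members was *Cyp7b1* and *Baat*, with a Spearman correlation of 0.54. *Cyp7a1* and *Nr1h4* stood at 0.47, and *Akr1d1* and *Baat* also at 0.47. *Cyp7a1* and *Cyp8b1*, both of the classic route, stood at 0.15, and *Cyp7a1* and *Cyp7b1* at 0.07. All values within a mouse share a library and its depth.

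The genes most like *Cyp7b1* over the 56 mice were *Sult2a8*, *Adtrp* and *Cyp4f14*, with Spearman correlations of 0.88, 0.87 and 0.87 in log2 CPM. With the group means taken out, the closest were *Hsd3b5*, *Mup12* and *Slc22a28*, at 0.86, 0.82 and 0.82. For *Cyp27a1* the closest in log2 CPM were *Cyp4f13*, *Gpld1* and *Pemt*, at 0.88, 0.88 and 0.86. With the group means taken out, these stood at 0.64, 0.60 and 0.59. In log2 CPM the classic enzymes had weaker neighbours. *Gm14403* and *Dnajb4* were among the closest to *Cyp7a1*, at 0.60 and 0.58. *Tbc1d30*, *Abcd3* and *Ttc39c* were the closest to *Cyp8b1*, at 0.56, 0.55 and 0.52. With the group means taken out, the highest value was 0.69 for *Cyp27a1*, 0.56 for *Cyp7a1* and 0.59 for *Cyp8b1*. *Abcd3*, the peroxisomal importer of bile acid precursors, was also among the 3 closest to *Cyp8b1* with the group means taken out, at 0.56.

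Other enzymes and cofactors of bile acid formation were followed in a list of 13 genes. Of them 5 were higher and 1 lower in chow than in DIO-MASH vehicle, 4 were higher with high-dose zalfermin, 3 with the combination, 3 with high-dose semaglutide and 2 with low-dose zalfermin. Of all genes, 55.4%, 17.2%, 20.9%, 2.43% and 0.468% were called in these comparisons, so the counts for chow and the combination lay near or below the share over all genes. *Cyp2c70*, the mouse enzyme that makes muricholic acids, averaged 211 CPM in DIO-MASH vehicle, 525 CPM in chow, 570.5 CPM with high-dose zalfermin and 677 CPM with the combination. Its log2 fold changes from vehicle were 1.32, 1.43 and 1.68 (adjusted p = 1.62e-06, 3.60e-06 and 1.51e-07). *Slc27a5*, the bile acid CoA ligase that acts before BAAT, rose by 1.28, 0.79 and 0.86 on the same scale (adjusted p = 3.72e-13, 9.35e-07 and 1.51e-07). *Por*, the reductase that supplies electrons to microsomal P450 enzymes, rose by 0.82, 0.92 and 0.61. *Ch25h*, the cholesterol 25-hydroxylase, was lower in chow (log2 fold change -4.57 ± 0.88, adjusted p = 1.87e-05).

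Of 15 tested regulators of the pathway, 10 were higher in chow, 6 with high-dose zalfermin, 8 with the combination and 2 with high-dose semaglutide, and none was lower. Of all genes, 55.4%, 17.2%, 20.9% and 2.43% were called in either direction, so the count in chow lay near that share. *Nr0b2*, the FXR-induced repressor SHP, was not called in any of these, with log2 fold changes of 0.19 in chow, 0.18 with high-dose zalfermin and 0.28 with the combination. *Klb*, the β-klotho coreceptor of FGF21 and FGF15, was higher by 1.02 in chow, 0.78 with high-dose zalfermin and 0.68 with the combination (adjusted p = 5.11e-08, 8.00e-05 and 5.03e-04). *Fgfr4*, the receptor through which FGF15 lowers *Cyp7a1*, was higher by 1.06, 0.44 and 0.67 (adjusted p = 2.59e-10, 0.00718 and 4.59e-05). *Hnf4a*, also counted among the hepatocyte markers, was higher by 1.19, 0.64 and 0.80, and *Ppargc1a* by 0.39, 0.79 and 0.78. The *Vdr* call in chow rested on 1 mouse at 82.7 CPM, where the chow median was 0 CPM.

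Targets of the sterol receptors did not share 1 direction. Of 6 tested FXR targets of the liver, 4 were higher and 1 lower in chow, 1 was higher and 2 lower with high-dose zalfermin, and 2 were higher with the combination, against 55.4%, 17.2% and 20.9% of all genes called. *Abcb11*, the bile salt export pump, was higher by 0.80 in chow and 0.58 in the combination (adjusted p = 2.62e-04 and 0.0197), and *Fetub* by 1.67, 0.53 and 0.64 in chow, high-dose zalfermin and the combination. *Slc51b*, a basolateral bile acid exporter, was lower with high-dose zalfermin (log2 fold change -2.36 ± 0.65, adjusted p = 0.00775). Its mean over all mice was only 1.06 CPM, so that value rests on few reads. *Abcb4* was also lower with high-dose zalfermin, at -0.42 (adjusted p = 5.31e-04). Of 8 LXR targets, *Abcg5* and *Abcg8*, the pair that exports cholesterol into bile, were higher with high-dose zalfermin, by 0.65 and 0.89 (adjusted p = 0.0328 and 0.00987). *Abcg1* was lower in chow, high-dose zalfermin and the combination, at -2.16, -0.60 and -0.63, and 4 of the 8 were lower in chow, a share below the 55.4% of all genes called there.

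Sex-biased liver genes are given beside *Cyp7b1* and *Cyp39a1*. Of 8 tested female-biased genes, 7 were higher with the combination and 5 with high-dose zalfermin, among them *Cyp2b9* at 4.01 and 3.24 on the log2 scale, and in chow 3 were higher and 2 lower. Of 10 male-biased genes, 5 were lower with the combination and 2 with high-dose zalfermin, led by *Cyp4a12b* at -3.55 and -2.04, while in chow 6 were higher and 1 lower. The shares of all genes called were 20.9% (combination), 17.2% (zalfermin, high dose) and 55.4% (chow). The male-biased count with high-dose zalfermin and both the male-biased and female-biased counts in chow lay near those shares. *Hsd3b5*, a male-biased steroid dehydrogenase, was at a median of 93.1 CPM in chow and at 0.64 CPM in DIO-MASH vehicle. In low-dose zalfermin mouse 1, which held the highest *Cyp7b1* of its group, 357 CPM, *Hsd3b5* was at 85.9 CPM, while the group median was 0.55 CPM. The mouse highest for *Cyp7b1* was also highest for *Hsd3b5* in high-dose zalfermin (mouse 6), low-dose semaglutide (mouse 6) and high-dose semaglutide (mouse 3). Their *Hsd3b5* was at 17.1, 53.5 and 76.8 CPM. The same held in the combination, at 0.62 CPM of *Hsd3b5*, but not in chow or DIO-MASH vehicle. *Cyp2b9*, *Cyp4a12b* and their near-identical relatives are uncertain, since reads could be split between them.

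*Cyp7a1* and *Cyp8b1* are known to follow the daily clock, so clock genes are given too. Of 10 clock genes and output factors, 5 were higher in chow, 2 with high-dose zalfermin (*Per1* and *Tef*, by 0.54 and 0.49) and 1 with the combination, counts near or below the 55.4%, 17.2% and 20.9% of all genes called. The gene called with the combination was *Arntl*, higher by 2.27 ± 0.48 (adjusted p = 4.61e-04), with 1.04 to 24.4 CPM in the combination and 0.48 to 2.93 CPM in DIO-MASH vehicle. Combination mice 4, 5 and 6 held 14.8, 17.6 and 24.4 CPM of *Arntl*, and their *Cyp7a1* was at 64.7, 225 and 65.4 CPM. The same mice held the lowest *Dbp* of the group, 26, 16.2 and 5.86 CPM, where the other combination mice held 68.8 to 171 CPM and DIO-MASH vehicle mice 50 to 198 CPM. In high-dose zalfermin, mouse 4 held the highest *Arntl* of its group, 5.15 CPM, and the lowest *Dbp*, 38 CPM. The other mice of that group held 120 to 195 CPM of *Dbp*. Mouse 4 also held the highest *Cyp7a1* of high-dose zalfermin, 531 CPM. *Dbp* was higher in chow by 0.86 (adjusted p = 0.0386). The part of the clock in the member differences was not tested.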

How the data were processed

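Liver RNA from 56 mice (8 in each of 7 groups, assigned by the labels) was analysed. Per the study's methods the authors made stranded mRNA libraries, sequenced them on a NextSeq and aligned reads to GRCm38 with STAR. The submitters' processing notes name Trim Galore 0.6.4, Salmon 1.9.0 and GRCm38, and the counting program and its strand setting are not given in the sources used here. The deposited values are raw read counts per gene.

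A gene was tested if at least 3 mice had at least 5 reads of it, the filter of the study's methods. Counts were tested with edgeR 4.0.16 in R 4.3.3: TMM scaling, 1 quasi-likelihood fit of the 7 groups without covariates, two-sided F tests and Benjamini-Hochberg adjustment over the 14105 genes. The study used DESeq2, which served as an alternative here (version 1.42.0). Log2 CPM used a prior count of 2. The fit was tested on simulated counts. Body weight was not used here. The study left out 1 low-dose semaglutide mouse that the labels do not name, so all 56 were kept and each was left out in turn. The other alternatives were DESeq2 size factors, no filter beyond 1 read, a filter of 10 reads in 8 mice, the number series (running mouse numbers divided here at their widest gaps) as a covariate, and a fit of only the groups compared.

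Comparisons with chow of the treated groups, and those without named mice, were added after the data were seen. The members, gene lists and tests were chosen with earlier results of these data known. Genes outside the members were named by rule: of each list, up to 3 called genes per direction with the largest fold change in chow, high-dose zalfermin and the combination against vehicle, with *Nr0b2*, *Fgfr4*, *Klb*, *Slc27a5* and *Cyp2c70* always, and the 3 closest genes by Spearman correlation. The group-centred neighbours and the single-mouse values of *Arntl*, *Dbp* and *Hsd3b5* were chosen after the values were seen. Some genes that the rule names are not reported here. No 2 libraries of a group agreed within sampling noise. Figures were drawn with matplotlib 3.10.9.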

Additional observations from a re-analysis of the deposited data

Results flagged for a closer look

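Of 70 sets of 8 mice (10 genes in 7 groups), 11 held a mouse whose gap to the nearest other mouse, divided by the range of the set, passed Dixon's 95% value for 8 samples. That value is set to flag about 1 in 20 independent sets of normally spread values. These sets share mice and libraries and hold CPM without a log scale, so the count cannot be compared with that rate. Mouse 1 of low-dose zalfermin was the highest of its group for *Cyp7a1* at 399 CPM (others up to 194 CPM), *Cyp7b1* at 357 CPM (up to 147 CPM), *Cyp39a1* at 36.8 CPM (up to 29.6 CPM) and *Baat* at 265 CPM (up to 219 CPM). Mouse 6 of low-dose semaglutide was the highest for *Akr1d1* at 272 CPM (up to 160 CPM) and *Baat* at 255 CPM (up to 195 CPM).

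In the combination, mouse 5 was the highest for *Cyp8b1* at 428 CPM (others up to 233 CPM) and mouse 4 for *Akr1d1* at 411 CPM (up to 290 CPM). In high-dose semaglutide, mouse 7 was the lowest for *Amacr* at 101 CPM (others from 120 CPM) and mouse 5 for *Nr1h4* at 68.9 CPM (from 91.0 CPM). *Hsd3b7* in DIO-MASH vehicle mouse 7 was at 1.62 CPM (others up to 0.96 CPM), a gene with 25 reads or fewer in every mouse.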

How the results depend on the processing

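Over 6 alternatives, 932 of 960 member values kept their direction and their side of the threshold, 9 lost a call, 19 gained one and 0 reversed. DESeq2's Wald test gave 3 calls for low-dose zalfermin against vehicle in place of 1 and 2 for low-dose semaglutide in place of 0, and the number series as a covariate gave 2 for low-dose zalfermin. Between the combination and high-dose zalfermin, DESeq2 called 3 members, the number series 2, and DESeq2 size factors and the stricter filter 1 each, in place of 0. The fit of only the groups compared called 3 between the zalfermin doses in place of 1, 0 between the high doses of the 2 drugs in place of 1, and 1 for the low-dose departure from additivity in place of 0, as did DESeq2. The cause was not tested.

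With 1 mouse left out at a time, the number of members called stayed at 7 for chow against vehicle, 0 for low-dose semaglutide against vehicle and between the semaglutide doses, 6 for high-dose zalfermin against chow, and 2 for the combination against either semaglutide dose. It ranged from 0 to 2 for low-dose zalfermin, 5 to 7 for high-dose zalfermin, 1 to 3 for high-dose semaglutide and 3 to 4 for the combination, each against vehicle. The 1 came without high-dose semaglutide mouse 2 or 3. It ranged from 1 to 2 between the zalfermin doses, 2 to 3 for the combination against low-dose zalfermin, 0 to 2 against high-dose zalfermin and 5 to 6 against chow. It ranged from 0 to 1 between the high doses of the drugs, 0 to 1 for the departure from additivity and 5 to 7 over the 6 DIO-MASH groups. Of 41 called member differences, 7 were lost without some single mouse. No paired analysis was made, because the labels give no replicate number that groups share. Each running number belongs to 1 mouse. Sets of neighbouring numbers entered only as the number series, a covariate in 1 alternative, and shorter runs were not used as blocks. Counting error was small for 9 members, with 188 reads or more per mouse, and large for *Hsd3b7*.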
